A study of Mus musculus with 4 samples.

Results

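The 9 enzymes examined here make the sphingolipids of myelin, above all galactocerebroside (GalC) and its sulfated form, sulfatide. They were chosen by name as Ugt8a, Fa2h, Gal3st1, Cers2, Elovl1, Elovl7, Degs1, Sptlc1 and Sptlc2, and 8 of the 9 were among the 6940 genes of the deposited table. Sptlc1 was not listed and has no value here. RNA was sequenced from oligodendrocytes of mouse cortex, 2 conditional knockout (cKO) libraries and 2 control libraries. The cKO cells had the genotype Olig1cre/+;Zdhhc5fl/fl and the control cells Zdhhc5fl/fl, both on C57BL/6. Cre was expressed from the Olig1 locus, which is active in the oligodendrocyte lineage. Only cKO cells carried it, so effects of Cre, of the altered Olig1 locus and of the loss of Zdhhc5 cannot be told apart. Zdhhc5 encodes an enzyme that attaches palmitate to proteins. Like Sptlc1, it was not among the listed genes, so the genotype labels could not be checked by its level. All cells came from pups at postnatal day 5, were selected as precursors by panning on GalC and then O4 antibodies, grew for 6 days, and were harvested after 24 h of differentiation with the thyroid hormone T3 at 40 ng/mL. The labels leave unstated if libraries of 1 genotype derive from different animals or cultures, so p-values measure only the spread between these libraries, which may be technical.

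Sphingolipid synthesis starts when serine palmitoyltransferase, whose subunits include the products of Sptlc1 and Sptlc2, joins serine to palmitoyl-CoA. Ceramide synthases such as the product of Cers2 add a very long fatty acid made by elongases of the ELOVL family, Degs1 introduces the double bond that yields ceramide, and Fa2h places a hydroxyl group on the fatty acid. The galactosyltransferase encoded by Ugt8a then makes GalC, and the sulfotransferase encoded by Gal3st1 turns GalC into sulfatide, the lipid that O4 antibodies recognise. GalC and sulfatide are abundant in myelin, and in the oligodendrocyte lineage their appearance marks differentiation.

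All 8 listed enzymes were lower in cKO cells, but by very different amounts. In 4 of the 8, levels stood at 20.8% to 37.5% of their control level: Fa2h, Ugt8a and Gal3st1, which respectively hydroxylate, galactosylate and sulfate the lipid, and the elongase Elovl7. The other 4, Sptlc2, Degs1 and Cers2 of ceramide synthesis and the elongase Elovl1, stood at 70.4% to 82.5%. The median log2 fold change (cKO over control) was -1.69 in the first group and -0.33 in the second, against -0.22 over all 6940 listed genes. These groups were named with the values in view and got no test. Because the table listed only genes that the authors had called at an adjusted p under 0.05, 40.0% of 17347 genes, a listed gene had to differ. In limma all listed genes passed again (100%), and 53.3% of them were lower in cKO cells, with both cKO values under both control values in 53.3%. A fall of at least 2-fold was found in 4 of the 8 enzymes and in 11.7% of all listed genes, and a rise of that size in 0 of the 8 and in 5.68% of all listed genes. Changes are also given GC-adjusted, meaning that the trend of the log2 fold change with the GC content of the transcript over all listed genes was removed. This raised the median log2 fold change of all listed genes by 0.23, to 0.01, and left 34.0% of the 6934 genes with a GC content called higher and 34.9% called lower.

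Promoter sequences are shown for the enzymes that fell most, and shared control of these genes was not tested. RefSeq promoters (GRCm38.p6) were matched for 7 of the 8 genes. Fa2h had no entry. Each line gives the 250 bases before the RefSeq start, 5′ to 3′ on the gene's strand, at chr3:125938653-125938902 (minus strand) for Ugt8a, chr13:108214154-108214403 (plus strand) for Elovl7 and chr11:3983386-3983635 (plus strand) for Gal3st1. Capitals mark matches on either strand to GGGCGG (a GC box), ACAAAG and ACAATG (cores bound by SOX factors), CAGCTG (an E-box) or CTGGNAC (the motif of MYRF).
Ugt8a: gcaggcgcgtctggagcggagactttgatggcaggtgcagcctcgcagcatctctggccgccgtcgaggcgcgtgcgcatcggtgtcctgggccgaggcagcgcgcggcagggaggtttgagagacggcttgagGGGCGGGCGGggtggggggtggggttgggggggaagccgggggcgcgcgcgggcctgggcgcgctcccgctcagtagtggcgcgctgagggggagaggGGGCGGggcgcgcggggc
Elovl7: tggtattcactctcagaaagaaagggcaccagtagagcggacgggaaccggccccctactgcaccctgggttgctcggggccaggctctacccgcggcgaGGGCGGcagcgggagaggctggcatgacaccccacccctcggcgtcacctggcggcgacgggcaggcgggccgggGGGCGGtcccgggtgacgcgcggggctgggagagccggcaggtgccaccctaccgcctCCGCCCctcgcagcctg
Gal3st1: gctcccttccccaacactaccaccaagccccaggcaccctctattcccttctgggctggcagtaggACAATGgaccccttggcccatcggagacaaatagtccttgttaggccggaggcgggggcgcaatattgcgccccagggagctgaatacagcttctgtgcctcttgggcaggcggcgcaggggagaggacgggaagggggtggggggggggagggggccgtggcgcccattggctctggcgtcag
The Ugt8a window held 3 GC boxes, of which 2 overlap, and the Elovl7 window held 3, a motif present in 32.7% of 32841 such windows. In the windows of weakly lowered enzymes, not shown, Elovl1 held 5 GC boxes, Sptlc2 2, Cers2 2 and Degs1 0. Gal3st1 held 0 GC boxes and 1 ACAATG, which was present in 10.7% of windows. ACAAAG (16.5% of windows), CAGCTG (13.0%) and CTGGNAC (16.1%) did not occur in these 3 windows. A match is a description of letters and shows no binding, and the lack of a match says nothing about a factor.

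Ugt8a had the highest control level of the enzymes and the deepest fall. It had 2923 and 2937 normalised reads in cKO libraries, against 14166 and 14068 in control libraries. The genotypes lay far apart and the 2 libraries of each were close. The means were 2930 ± 9.7 in cKO cells and 14117 ± 69.0 in control cells (SD, n = 2 each), and the log2 fold change was -2.27 (SE 0.035, limma adjusted p 1.92e-24). Ranked from the lowest log2 fold change, Ugt8a was number 108 of 6940. Its longest transcript has a GC content of only 38.0%, and its GC-adjusted log2 fold change was -1.48. The gene lies on chromosome 3 from 125865271 to 125938619 (GRCm38, minus strand).

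Gal3st1, the next enzyme, had 789.6 and 698.9 normalised reads in cKO libraries, against 2041 and 1927 in control libraries. The 2 cKO values differed by more than those of Ugt8a did, but did not overlap the controls, which held for every listed gene that was lower. The means were 744.2 ± 64.1 in cKO cells and 1984 ± 80.4 in control cells, 2.67-fold lower in cKO cells (log2 fold change -1.42, SE 0.06, limma adjusted p 2.15e-15). Gal3st1 is rich in GC (59.5%), and the GC-adjusted value was -1.79. It lies on chromosome 11 from 3983636 to 3999326 (plus strand).

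Fa2h, which supplies the hydroxylated fatty acids typical of myelin GalC, had 814.0 and 777.2 normalised reads in cKO libraries, against 2205 and 2361 in control libraries. Both cKO values were well under both control values. The means were 795.6 ± 26.0 in cKO cells and 2283 ± 110.3 in control cells (log2 fold change -1.52, SE 0.06, limma adjusted p 6.55e-17), while the GC-adjusted value was -1.83. The gene spans 111345135 to 111393824 of chromosome 8 (minus strand).

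Elovl7, an elongase of long-chain fatty acids, had 699.7 and 687.0 normalised reads in cKO libraries, against 2531 and 2525 in control libraries. Libraries of a genotype were again nearly level. The means were 693.4 ± 9.0 in cKO cells and 2528 ± 4.3 in control cells, 3.65-fold lower in cKO cells (log2 fold change -1.86, SE 0.055, limma adjusted p 5.64e-19), GC-adjusted -1.36. It lies on chromosome 13 from 108214404 to 108285683 (plus strand).

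Sptlc2, Degs1, Cers2 and Elovl1 fell by less. Sptlc2, a catalytic subunit of serine palmitoyltransferase, had 940.6 and 967.1 normalised reads in cKO libraries, against 1361 and 1350 in control libraries (log2 fold change -0.51, SE 0.06, limma adjusted p 7.16e-08). Its call held after GC adjustment (log2 fold change -0.18, limma adjusted p 0.0175). It was lost with the trends with GC content and gene length both removed (log2 fold change -0.14, limma adjusted p 0.0863). Degs1, the desaturase that completes ceramide, had 2481 and 2613 normalised reads in cKO libraries, against 3137 and 3233 in control libraries (log2 fold change -0.32 with an SE of 0.045, limma adjusted p 1.16e-06). This call was lost after GC adjustment (-0.07, limma adjusted p 0.344), but was made with both trends removed (-0.27, limma adjusted p 2.55e-05).

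Cers2, the ceramide synthase for very long acyl chains, had 2667 and 2715 normalised reads in cKO libraries, against 3281 and 3241 in control libraries. This was the smallest change of the 8 (log2 fold change -0.28, SE 0.04, limma adjusted p 5.28e-06). It no longer passed when the libraries were scaled by relative log expression factors (-0.09, limma adjusted p 0.149), a scaling that raised the median log2 fold change of all listed genes by 0.19, and it was -0.44 after GC adjustment. Elovl1, which elongates saturated acyl chains to the lengths Cers2 uses, had 1399 and 1346 normalised reads in cKO libraries, against 1729 and 1754 in control libraries (log2 fold change -0.34, SE 0.05, limma adjusted p 5.21e-06). Its GC-adjusted value was -0.57. In these 4 genes too, the genotypes did not overlap, as in all 3696 listed genes that were lower (53.3% of 6940).

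**Figure D1:**
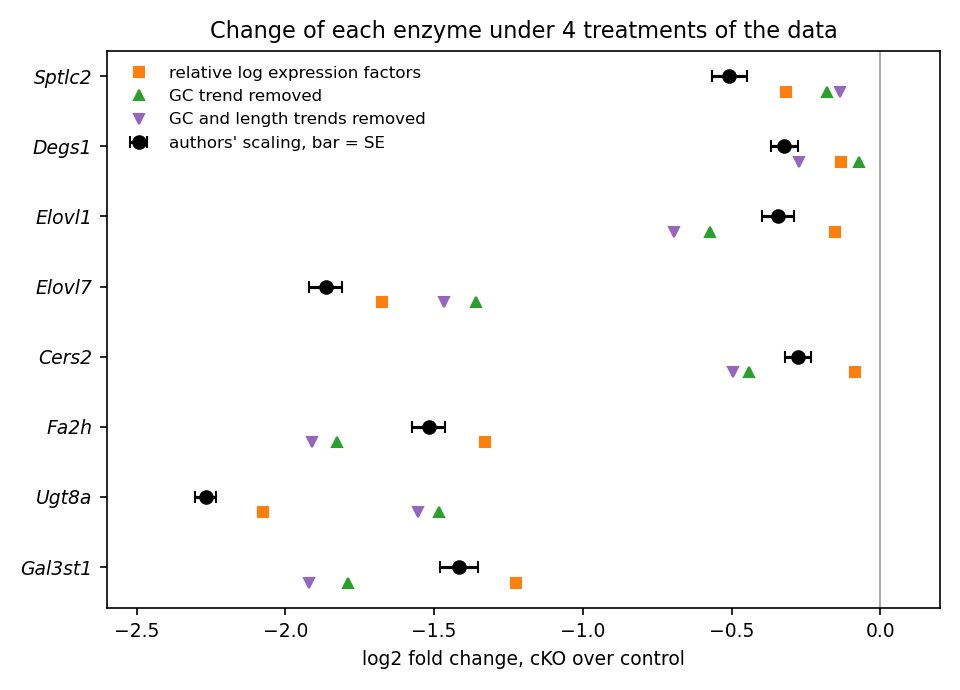
Log2 fold change (cKO over control, x axis) of the 8 listed enzymes in the order of the pathway (y axis). Black points show the authors' scaling with the SE as bar, and coloured points show values after another scaling or after removal of the GC or the GC and length trends; Elovl7, Fa2h, Ugt8a and Gal3st1 stay at or below -1.22 in all 4, and the other 4 genes at or above -0.70.

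Ugt8a had the deepest fall with the authors' scaling, but this order depended on base composition. After GC adjustment Fa2h (-1.83) and Gal3st1 (-1.79) were lower than Ugt8a (-1.48) and Elovl7 (-1.36). The separation of the strongly and the weakly lowered enzymes was present under each of the 18 alternative treatments, in which the 4 strong ones ranged from -2.27 to -1.22 and the 4 weak ones from -0.70 to -0.07. Both groups were picked with these values known. Some of the 18 could not alter the separation, because they leave log2 fold changes unchanged. These are the other filters, the adjustment of p-values over the listed genes only, and the replicate block.

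Levels were compared between genes as normalised reads per kb of gene length. In cKO cells Degs1 stood first with 982.9 ± 36.1, followed by Cers2, Ugt8a with 645.9 ± 2.1, Elovl1, Gal3st1, Fa2h, Elovl7 and Sptlc2 with 117.5 ± 2.3. In control cells Ugt8a stood first with 3112 ± 15.2 normalised reads per kb, followed by Degs1 with 1229 ± 26.1, Gal3st1, Cers2, Fa2h, Elovl1, Elovl7 and Sptlc2 with 167.0 ± 1.0. Adjacent genes in these orders had no overlapping library values. The closest pair was Elovl1 with 634.3 and 643.5 and Elovl7 with 630.7 and 629.2 normalised reads per kb in control libraries.

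**Figure D2:**
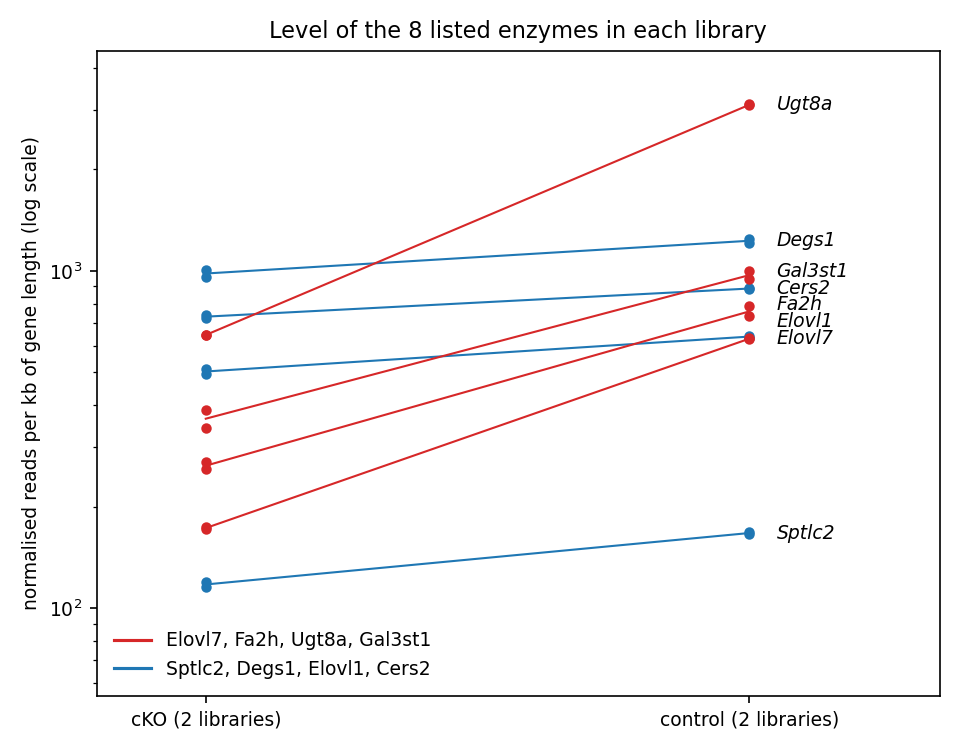
Level of the 8 listed enzymes in normalised reads per kb of gene length (y axis, log scale) in 2 cKO libraries and 2 control libraries (x axis). Points are libraries and lines join the means; Ugt8a drops below Degs1 and Cers2 in cKO cells, and Gal3st1, Fa2h and Elovl7 drop below Elovl1.

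Ratios between genes within a library do not depend on the size factor of that library. Ugt8a over Cers2, as a ratio of normalised reads per kb, was 0.888 and 0.877 in cKO libraries, against 3.499 and 3.518 in control libraries. Elovl7 over its paralog Elovl1 was 0.340 and 0.347 in cKO libraries, against 0.994 and 0.978 in control libraries. Neither ratio overlapped between genotypes, and the log2 differences were -1.99 and -1.52, or -1.04 and -0.79 after GC adjustment. Both ratios were picked after their values were seen, and none of the 10 ratios compared in all overlapped.

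Set against Sox10, a transcription factor that drives myelin genes and was itself lower (6493 and 6158 normalised reads in cKO libraries, against 16993 and 16977 in control libraries), the enzymes differed from each other. Fa2h over Sox10 was nearly level, at 0.127 and 0.128 in cKO libraries, against 0.132 and 0.141 in control libraries. Ugt8a over Sox10 was 0.303 and 0.321 in cKO libraries, against 0.561 and 0.557 in control libraries, a log2 difference of -0.84 that turned to 0.35 after GC adjustment. Elovl7 over Sox10 was 0.0819 and 0.0848 in cKO libraries, against 0.113 in each control library, a log2 difference of -0.44 that turned to 0.47.

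Relative to Ugt8a the sulfotransferase was higher in cKO libraries. Gal3st1 over Ugt8a was 0.6003 and 0.5289 in cKO libraries, against 0.3202 and 0.3045 in control libraries, and Fa2h over Ugt8a was 0.4200 and 0.3991 in cKO libraries, against 0.2347 and 0.2531 in control libraries. These log2 differences, 0.85 and 0.75, turned to -0.31 and -0.34 after GC adjustment, so the ratio of these genes to Ugt8a has no direction that holds under both treatments. Elovl7 over Ugt8a had a log2 difference of 0.40, and of 0.12 after GC adjustment. In all, 10 ratios were compared, 5 of them picked after their values were seen. Each separated the genotypes, with a two-sided exact permutation p of 0.333 (0.333 after Benjamini-Hochberg adjustment), the smallest that 2 against 2 libraries allow.

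**Figure D3:**
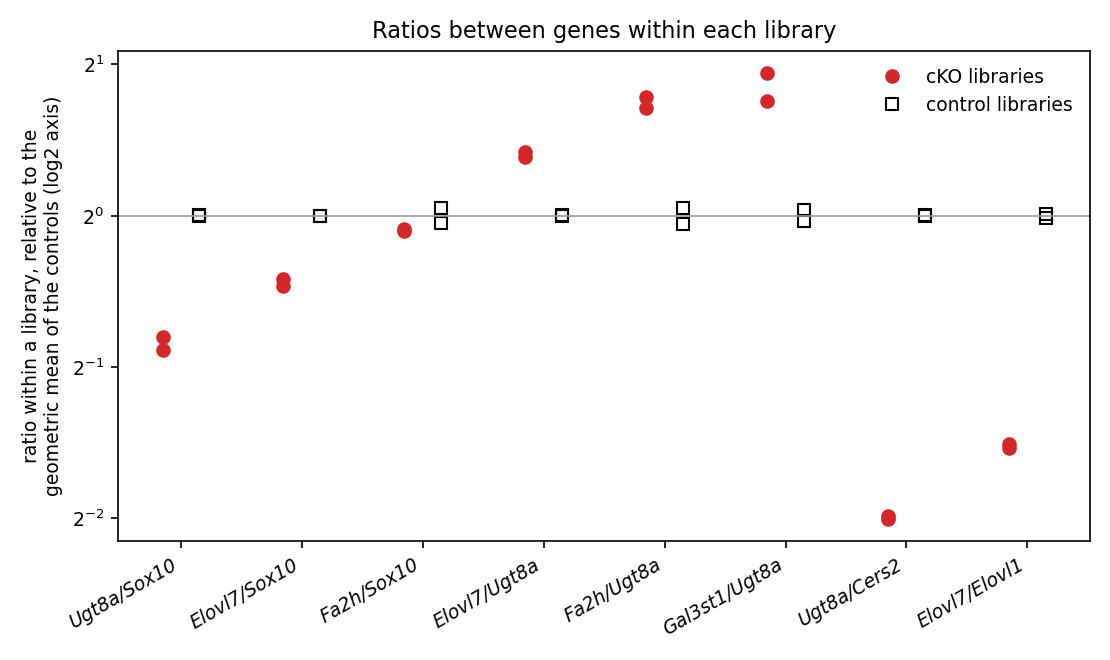
Ratio of one gene to another within each library (x axis), divided by the geometric mean of the 2 control libraries (y axis, log2 scale). Filled circles are cKO libraries and open squares control libraries; Ugt8a over Cers2 and Elovl7 over Elovl1 lie below the other ratios drawn in cKO libraries (log2 differences -1.99 and -1.52), and Fa2h over Sox10 lies near 1. After GC adjustment Ugt8a and Elovl7 over Sox10 turn direction, as do Fa2h and Gal3st1 over Ugt8a. Elovl7 over Ugt8a keeps its direction, and Fa2h over Sox10 stays near level (log2 differences -0.094, and 0.003 after GC adjustment).

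The genes of sphingolipid metabolism outside the 9 names were followed in 7 lists with 94 genes, of which 58 were listed, 30 higher and 28 lower in cKO cells. Genes for proteins that take ceramide and its glycolipids onward were lower in 7 of 7 listed members (of 8 genes), and their median log2 fold change was -0.70. Of all listed genes 53.3% were lower. After GC adjustment 3 of the 7 were called lower, against 34.9% of all genes adjusted, 0 were called higher and 5 lay below 0. Sgms2, a sphingomyelin synthase of the plasma membrane, had 353.5 and 376.1 normalised reads in cKO libraries, against 1316 and 1392 in control libraries (log2 fold change -1.89, SE 0.07, limma adjusted p 1.04e-16). Cerk, which phosphorylates ceramide, fell 2.65-fold (limma adjusted p 2.25e-19), and Gltp, a protein that moves glycolipids such as GalC between membranes, fell 2.24-fold (limma adjusted p 1.89e-18). These 3 genes were also lower after GC adjustment, by log2 fold changes of -1.53, -1.71 and -1.45. Ugcg, which puts glucose rather than galactose on ceramide, had 526.6 and 522.1 normalised reads in cKO libraries, against 815.0 and 728.0 in control libraries. Its log2 fold change of -0.55 (limma adjusted p 1.43e-06) was not called after GC adjustment (-0.13, limma adjusted p 0.308). Col4a3bp, the ceramide transfer protein, lost its call likewise (-0.70, and -0.18 after GC adjustment, limma adjusted p 0.0519).

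Among the other genes of ceramide synthesis 5 of 13 were listed, 1 higher and 4 lower. Their median log2 fold change of -0.36 turned to 0.02 after GC adjustment, where 1 was called higher, 1 was called lower and 4 of the 5 lay above 0. The counts of this paragraph stand beside 46.7% of all listed genes called higher and 53.3% called lower. After GC adjustment these shares were 34.0% and 34.9%. The ORMDL proteins restrain serine palmitoyltransferase, and 2 of their genes moved apart. Ormdl1 had 278.4 and 309.7 normalised reads in cKO libraries, against 434.0 and 489.7 in control libraries, and Ormdl3 had 2990 and 2886 against 2205 and 2290. Neither passed after GC adjustment, where Ormdl1 turned to 0.02 and Ormdl3 stood at 0.06 on the log2 scale. Other genes of elongation and desaturation were split, 4 higher and 4 lower of 8 listed among 15, and 2 in each direction after GC adjustment. Elovl6, which elongates palmitate, fell 1.67-fold (log2 fold change -0.74, and -0.34 after GC adjustment). Elovl4, an elongase of very long chains, had a log2 fold change of -0.65, and -0.20 after GC adjustment. Elovl5, an elongase of polyunsaturated chains, was higher, with 13368 and 13759 normalised reads in cKO libraries, against 10909 and 10931 in control libraries (log2 fold change 0.31, limma adjusted p 8.49e-09), and Hacd2, a dehydratase of the elongation cycle, rose by a log2 fold change of 0.32.

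Genes that supply sugar, sulfate and electrons to these enzymes were split too, 5 higher and 5 lower of 10 listed among 16. Of all listed genes 46.7% were called higher and 53.3% lower. After GC adjustment 2 of the 10 were called higher and 4 lower, against 34.0% and 34.9% of all genes adjusted. Papss1, which makes the sulfate donor used by Gal3st1, had 6679 and 6717 normalised reads in cKO libraries, against 10046 and 9581 in control libraries (log2 fold change -0.55, SE 0.035, limma adjusted p 1.62e-12). Slc35b2, which carries that donor into the Golgi, had a log2 fold change of -0.28 and lost its call with relative log expression factors (-0.09, limma adjusted p 0.155). Impad1, a phosphatase of the Golgi that clears a by-product of sulfation, fell 1.92-fold, and its log2 fold change of -0.94 was -0.23 after GC adjustment. Cyb5a, an electron carrier for lipid desaturases and hydroxylases, fell 1.55-fold (log2 fold change -0.63, and -0.71 after GC adjustment). Galk1, which phosphorylates galactose, rose 1.41-fold, and its log2 fold change of 0.50 was not called after GC adjustment (0.10, limma adjusted p 0.838). Papss1, Slc35b2 and Cyb5a, like Elovl4, Elovl5, Ugcg, Col4a3bp, Galc, Arsa and Psap, are named for their role and were chosen with the values known.

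**Figure D4:**
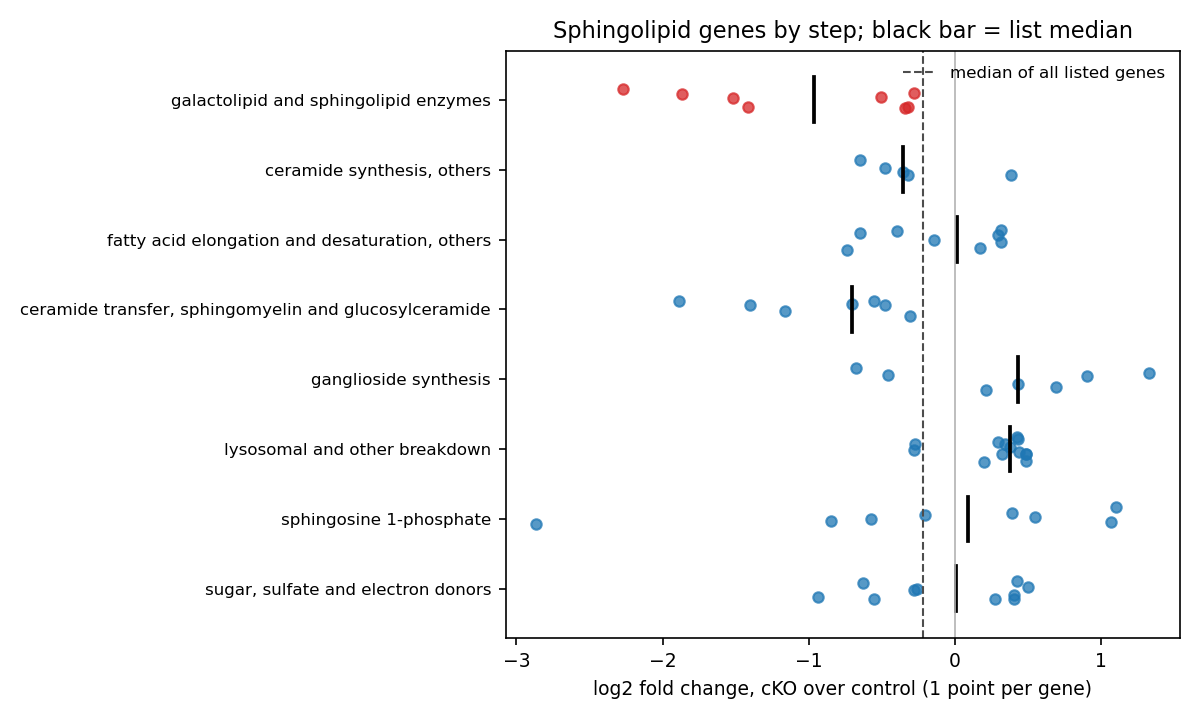
Log2 fold change (cKO over control, x axis) of each listed gene in the 8 enzymes and in 7 lists of other sphingolipid genes (y axis), 1 point per gene. Black bars are list medians and the dashed line is the median of all listed genes, -0.22; the breakdown genes have a median of 0.38 and the 8 enzymes one of -0.96.

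Most listed genes for breakdown went the other way. Of 20 genes 13 were listed, 11 higher and 2 lower. Their median log2 fold change was 0.38. A call of higher was made for 46.7% of all listed genes. After GC adjustment 8 were called higher and 2 lower (median 0.18), against 34.0% of all genes adjusted called higher. With the GC and length trends both removed 6 were called higher and 2 lower, against 33.2% of all genes adjusted called higher. Gm2a, an activator protein for lysosomal ganglioside breakdown, had the largest rise, with 5840 and 5719 normalised reads in cKO libraries, against 4051 and 4193 in control libraries (log2 fold change 0.49, SE 0.04, limma adjusted p 7.89e-11). Arsa, the sulfatidase, had 1151 and 1050 normalised reads in cKO libraries, against 747.0 and 825.7 in control libraries, and was not called after GC adjustment (log2 fold change 0.48, and 0.16 without the trend). Psap, the precursor of the saposins, rose by 0.20 on the log2 scale and turned to -0.10 after GC adjustment. Galc, which cleaves GalC, had 1971 and 1933 normalised reads in cKO libraries, against 2318 and 2409 in control libraries. Its log2 fold change of -0.28 turned to 0.49 after GC adjustment (GC content 38.3%). The sialidase gene Neu1 was the other member that fell, with a log2 fold change of -0.28, and lost its call with relative log expression factors (-0.09, limma adjusted p 0.461).

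The ratio of synthesis to breakdown genes for the same lipid was lower in cKO libraries. Ugt8a over Galc, as normalised reads per kb, was 4.87 and 4.98 in cKO libraries, against 20.1 and 19.2 in control libraries, a log2 difference of -1.99 that was -1.97 after GC adjustment. Gal3st1 over Arsa was 1.24 and 1.20 in cKO libraries, against 4.93 and 4.21 in control libraries, a log2 difference of -1.90 and -1.95.

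Ganglioside synthesis genes were listed for 7 of 10, 5 higher and 2 lower (median log2 fold change 0.43, and 0.12 after GC adjustment). After GC adjustment 3 of the 7 were called higher and 2 lower. This list and the next stand beside 46.7% of all listed genes called higher and 53.3% called lower. After GC adjustment these shares were 34.0% and 34.9%. St8sia5, a sialyltransferase of complex gangliosides, had 230.3 and 229.0 normalised reads in cKO libraries, against 89.0 and 92.6 in control libraries (log2 fold change 1.33, SE 0.14, limma adjusted p 2.51e-08). In the sphingosine 1-phosphate list 8 of 12 were listed, 4 higher and 4 lower, or 2 called higher and 3 called lower after GC adjustment. S1pr5, the receptor of this signal lipid found on oligodendrocytes, had 18.0 and 23.7 normalised reads in cKO libraries, against 165.0 and 148.6 in control libraries, the deepest fall of the 7 lists (log2 fold change -2.86, SE 0.23, limma adjusted p 1.64e-10). S1pr3, a receptor of the same family, was higher, with 13527 and 13349 normalised reads in cKO libraries, against 6193 and 6309 in control libraries (log2 fold change 1.10, SE 0.03, limma adjusted p 7.05e-19). Sphk1, a kinase that makes the ligand, had only 83.3 and 64.1 normalised reads in cKO libraries, against 46.0 and 25.5 in control libraries, and its call was lost without control replicate 2 (log2 fold change 0.66, limma adjusted p 0.0729) and after GC adjustment (0.69, limma adjusted p 0.0926).

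By the distance of their profiles over the 4 libraries, the listed genes most like Ugt8a were Cldn11, Clca3a1 and Gm19439, at root mean square distances of 0.036, 0.043 and 0.046 on the log2 scale. Cldn11, the claudin of myelin, had 6617 and 6997 normalised reads in cKO libraries, against 31717 and 31628 in control libraries. Those most like Fa2h were Pllp, which encodes the myelin proteolipid plasmolipin, Gm38394 and Lingo2 (0.025 to 0.031). Those most like Elovl7 included Map1b and Ppp1r16b (0.0099 and 0.022), of which Map1b, a microtubule protein, had 4732 and 4660 normalised reads in cKO libraries, against 17235 and 17371 in control libraries. With 4 libraries in 2 genotypes, such likeness mostly records an equal fold change.

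The enzymes fell in libraries in which cell type markers also differed, and in bulk RNA fewer cells of a type and less RNA per cell cannot be told apart. The counts below stand beside 53.3% of all listed genes called lower and 46.7% called higher. Markers of mature oligodendrocytes were listed for 8 of 11 and all 8 were lower (log2 fold changes -4.09 to -1.34), their summed normalised reads being 62131 and 64381 in cKO libraries, against 309323 and 310022 in control libraries. The summed reads of the 8 enzymes were 12713 and 12740 in cKO libraries, against 30451 and 30459 in control libraries. Transcription factors of the lineage were lower in 5 of 5, Myrf by a log2 fold change of -1.78 and Olig2 by -0.52, with sums of 24003 and 22784 against 52940 and 53197. These include Olig1, with 7250.5 and 6438.4 normalised reads in cKO libraries, against 12036 and 11945 in control libraries. Its locus carried Cre in cKO cells only, so its fall cannot be told apart from an effect of the altered locus. Of 4 precursor markers 3 were listed, 1 higher and 2 lower (sums 33030 and 32536 against 40919 and 41727). Most of these reads came from Ptprz1, the marker that rose, with 25185 and 24478 in cKO libraries, against 22348 and 22586 in control libraries. Pdgfra and Gpr17 fell, by log2 fold changes of -0.86 and -1.36. Mbp, the main myelin protein gene, was 7.57-fold lower in cKO cells. Astrocyte markers were higher in 6 of 7 listed (of 8), summed reads being 760006 and 753169 in cKO libraries, against 501135 and 501808 in control libraries, of which Gfap, a filament gene of astrocytes, gave 557247 and 553584 against 351481 and 352111. Fibroblast and pericyte markers were higher in 6 of 6 (sums 11206 and 10826 against 3580 and 3400), neuron markers in 5 of 6 (8794 and 8940 against 7114 and 7419) and microglia markers in 4 of 4 listed of 8 (2009 and 2109 against 1322 and 1298). Endothelial markers had 2 of 4 listed, 1 higher and 1 lower (182 and 182 against 209 and 178). After GC adjustment markers were called higher in 7 of 7 for astrocytes, 6 of 6 for neurons, 6 of 6 for fibroblasts and pericytes and 2 of 4 for microglia, and the oligodendrocyte, lineage, precursor and endothelial counts did not change. Of all genes adjusted, 34.0% were called higher and 34.9% lower. No listed marker was at 0 in any library. The part of these differences in the fall of the enzymes was not tested.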

How the data were processed

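Bulk RNA libraries (2 cKO, 2 control) were analysed from 1 table of 6940 genes. The authors deposited a normalised signal per gene and library, which was found to be whole reads divided by 1 factor per library: 100% of values came out whole within 0.01 read, giving 20068016 and 13672254 reads over the listed genes in cKO libraries and 17077509 and 16773675 in control libraries, which is not the full depth. The deposited log2 fold changes, p-values and adjusted p-values of the authors served to count the genes behind the adjustment (17347) and are not printed. DESeq2, mm10 and GRCm38 are named in the submitters' processing notes; aligner, counter and strand setting are not given in the sources used here. Per the labels, replicates carry only numbers. The 2 libraries of a genotype differed by more than counting noise (chi-square per gene 3.24 in cKO and 2.32 in control).

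All genes with a value of at least 1 in 2 libraries (all 6940) were fitted with limma 3.58.1 (R 4.3.3) on log2(value + 1) with a variance trend and no covariate beside genotype (2 residual degrees of freedom per gene), and p-values were adjusted over 17347 genes by Benjamini and Hochberg, with a call under 0.05. This scale understates changes of low genes. Variances were pooled over genes selected for their difference, so p-values may be too low. Folds are ratios of mean normalised reads. Because only called genes were listed, calls are not independent evidence. GC content came from the longest transcript of GENCODE M21 (6934 genes), and trends were splines with 5 degrees of freedom, with the median of the trend kept. The functions were tested on simulated data. Named genes were the listed enzymes, list members with a log2 fold change of at least 1 in size or else the largest rise and fall, the 3 nearest profiles of Ugt8a, Fa2h and Elovl7 (1 of them is not reported here), and 4 markers. Members and lists were chosen with earlier results of these data known. Alternatives were pseudocounts of 0.5 and 10, other filters and scalings, edgeR 4.0.16 and DESeq2 1.42.0 on recovered reads, each library left out, a replicate block and the GC trends. Levels per kb used the deposited gene length.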

Additional observations from a re-analysis of the deposited data

How the results depend on the processing

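All 8 enzymes kept their direction under the 18 alternatives run, and 7 or 8 of them passed in each that kept all 4 libraries. The other filters, the adjustment over the listed genes only and the replicate block leave log2 fold changes unchanged, so they could not turn a direction. With the GC trend removed, 2356 listed genes were called higher and 2421 lower (2374 and 2447 with the replicate block as well), against 3244 and 3696, and of the 58 other sphingolipid genes 18 were called higher and 17 lower (18 and 18 with the block), against 30 and 28. With GC and length trends removed, 17 were called higher (18 with the block). The cause was not tested. Among the genes named in the text, directions turned with the GC trend removed for Ormdl1 (log2 fold change 0.019), Galc (0.49) and Psap (-0.10), and with GC and length trends removed for Ormdl3 (-0.086), Galk1 (-0.027), Galc (0.66) and Psap (-0.21), the same values with the replicate block. Trends were also removed from the ratios, an alternative chosen after seeing the data. The log2 difference of Ugt8a over Sox10 became 0.35 with the GC trend removed and 0.32 with both trends removed, Elovl7 over Sox10 0.47 and 0.40, Fa2h over Ugt8a -0.34 and -0.36, Gal3st1 over Ugt8a -0.31 and -0.37, and Elovl7 over Ugt8a 0.12 and 0.087, while Fa2h over Sox10 was 0.003 with the GC trend removed.

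The labels number the libraries without saying that a number pairs them, and deviations of same-numbered libraries correlated at 0.013 across the listed genes. With the replicate block 3242 genes were called higher and 3696 lower, and all 8 enzymes were called lower. Leaving out 1 library at a time gave 3137 to 3228 genes higher and 3588 to 3684 lower, with all 8 enzymes called lower each time. Relative log expression factors raised the median log2 fold change by 0.19 and gave 3250 genes higher and 2914 lower. The total depth of the libraries is unknown, and 2 libraries per genotype limit the precision.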
